A study of Mus musculus with 6 samples.

Results

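Immunoglobulin heavy chain transcripts were followed in hematopoietic stem cells (HSCs), the cells that maintain blood formation, and in multipotent progenitors (MPPs), their more advanced descendants. The heavy chain probes were those whose name in the array files begins with Igh or whose description contains the words immunoglobulin heavy, leaving out Ighmbp2, a helicase gene, and descriptions that also name the kappa light chain. This rule, which used no measured value, found 45 of the 55681 probes on the array, under 43 of its 34797 gene names. By position and description, 8 lay in constant genes, 3 lay downstream of the gamma 2C gene and 32 lay in variable segments. The other 2, the BALB/c heavy chain probe and Igh-V3660, had no position and were left unassigned, although the name Igh-V3660 holds a V. All 45 met the filter on dim probes, 42 were well above background on every MPP array in both dyes, and 37 were so on every HSC array.

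The groups were MPPs of Bmi1 KO mice, HSCs of Bmi1 KO mice, MPPs of wild-type (WT) mice and HSCs of WT mice, with 3 samples in each. All mice were C57BL6 and 2 to 3 months old, and the cells were purified by FACS. Bmi1 is a component of a Polycomb complex that represses transcription. What the KO allele lacks, and whether animals were pooled, is not in the labels. Each of the 6 arrays carried 1 KO sample in red (Cy5) and 1 WT sample in green (Cy3), so that the dyes were never exchanged and dye and genotype cannot be told apart in the KO over WT ratios. Populations were therefore compared within a dye. The labels call the replicates biological, and p-values measure the spread between these samples.

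An antibody heavy chain is encoded by 1 variable (V), 1 diversity and 1 joining segment, joined by DNA recombination in developing B cells and spliced to a constant gene. The mu constant gene gives the first heavy chain of a B cell, delta is made from the same primary transcript by alternative splicing, and the gamma, epsilon and alpha genes are used after class switching. Unrearranged V segments and constant genes are also transcribed, which is known as germline transcription and accompanies the opening of the locus. A probe within a V segment or a constant gene does not tell a germline transcript from one of a rearranged gene. In these bulk samples, fewer cells with a transcript and less RNA per cell cannot be told apart either.

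The probes are 60 bases long, and the sequences below are the sense strand as the array files give it. All lie on chromosome 12, minus strand, of mouse assembly mm9, per the file annotation. Exon and UTR annotation of that build was not used here. The first set reads constant genes, which give an antibody its class.
mu constant probe, chr12:114659630-114659689: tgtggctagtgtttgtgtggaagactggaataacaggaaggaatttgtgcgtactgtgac
delta constant probe, chr12:114654277-114654336: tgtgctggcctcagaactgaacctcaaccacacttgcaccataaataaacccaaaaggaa
gamma 1 probe A_55_P2066173, chr12:114568594-114568653: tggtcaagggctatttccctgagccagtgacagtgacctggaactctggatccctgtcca
gamma polypeptide probe, chr12:114544738-114544797: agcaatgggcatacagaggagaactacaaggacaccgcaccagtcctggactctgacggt

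The second set reads V segments of the large V1 family and shows how alike its probes are. Capitals mark the longest run of bases shared with another probe of the set. V1-83 and V1-84 shared a run of 30 bases, and V1-20 and V1-5 one of 29.
V1-83, chr12:117202095-117202154: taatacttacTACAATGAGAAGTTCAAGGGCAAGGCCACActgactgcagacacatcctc
V1-20, chr12:115962048-115962107: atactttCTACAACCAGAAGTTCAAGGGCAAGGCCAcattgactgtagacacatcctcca
V1-84, chr12:117218996-117219055: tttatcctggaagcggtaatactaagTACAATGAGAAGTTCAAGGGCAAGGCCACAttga
V1-5, chr12:115751612-115751671: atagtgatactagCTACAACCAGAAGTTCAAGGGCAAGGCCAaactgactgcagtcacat

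The third set reads segments of smaller families, whose levels varied most between replicate MPP arrays. The V8-5 and V8-12 probes shared no run of 8 or more bases with each other.
V8-5, chr12:116305943-116306002: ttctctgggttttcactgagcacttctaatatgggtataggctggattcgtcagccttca
V8-12, chr12:116886223-116886282: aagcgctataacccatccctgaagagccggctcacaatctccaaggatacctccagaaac
V11-2, chr12:115286517-115286576: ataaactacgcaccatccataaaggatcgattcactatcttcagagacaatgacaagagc
V9-2, chr12:115347272-115347331: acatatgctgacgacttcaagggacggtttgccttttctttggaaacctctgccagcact
V12-3, chr12:115604859-115604918: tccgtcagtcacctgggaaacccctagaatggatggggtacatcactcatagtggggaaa

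Median spot signals were 379 to 581 in red and 124 to 206 in green, and 78.8% to 83.9% of spots in red and 72.5% to 82.2% in green were well above background. No heavy chain spot was saturated. Precision is limited by having 3 arrays per population. Of the 2 Bmi1 probes, 1 was lower in the KO sample on 4 of 6 arrays and the other on 2 of 6, and neither passed the limma test (adjusted p 0.676 and 0.985 in HSCs, 1.00 and 0.994 in MPPs). Genes that mark MPPs, among them Flt3, a receptor commonly used to separate MPPs from HSCs, had higher means in MPPs for 5 of 5 in both genotypes, and 1 passed in KO and 2 in WT. Genes that mark HSCs had lower means in MPPs for 9 of 11 in KO and 11 of 11 in WT, and 0 passed. Row 2 of the single slide held MPP replicates 2 and 3, and row 1 held MPP replicate 1 with the HSC arrays.

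Heavy chain transcripts were far higher in MPPs than in HSCs of both genotypes. The median log2 difference over the 45 probes was 4.0 in KO and 4.21 in WT, where the median of all 44642 probes tested was -0.08 in each. In KO, 43 of 45 probes had a positive difference, as did 43.3% of all probes tested, and the 3 MPP samples all lay above the 3 HSC samples for 32 (8.36% of all probes) and below them for 0 (10.6% of all probes). In WT, 41 of 45 were positive (44.0% of all probes). There 31 had MPPs above HSCs without overlap (8.24% of all probes), and 2 had MPPs below HSCs without overlap (12.9% of all probes). All differences below are in log2 units unless a fold is named.

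By limma (lmFit and eBayes with Benjamini-Hochberg adjustment over all 44642 probes, threshold 0.05), 18 of the 45 probes rose in KO MPPs and 0 fell. Over all probes tested in KO, 0.352% passed, and 0.289% passed with MPPs higher. In WT MPPs 10 rose and 0 fell, where 0.282% of all probes passed and 0.224% passed with MPPs higher. The lists shared 6 probes, which were 33.3% of those called in KO and 60% of those called in WT. At an unadjusted p under 0.05, 33 probes were higher (6.26% of all probes) and 0 lower (5.36%) in KO MPPs. In WT MPPs, 31 were higher (6.58% of all probes) and 1 lower (7.65%). The counts of calls depended on single arrays. In KO, 18 passed without HSC 1, 9 without HSC 2, 12 without HSC 3, 7 without MPP 1, 9 without MPP 2 and 6 without MPP 3. In WT, 11 passed without MPP 2, 5 without HSC 2, and 0 without HSC 1, HSC 3, MPP 1 or MPP 3. The median difference ranged over these sets from 3.70 to 4.38 in KO and from 3.84 to 4.80 in WT. With slide row as a block, or within row 1 alone, 0 passed in either genotype and the median difference was 4.73 in KO and 4.77 in WT.

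**Figure D1:**
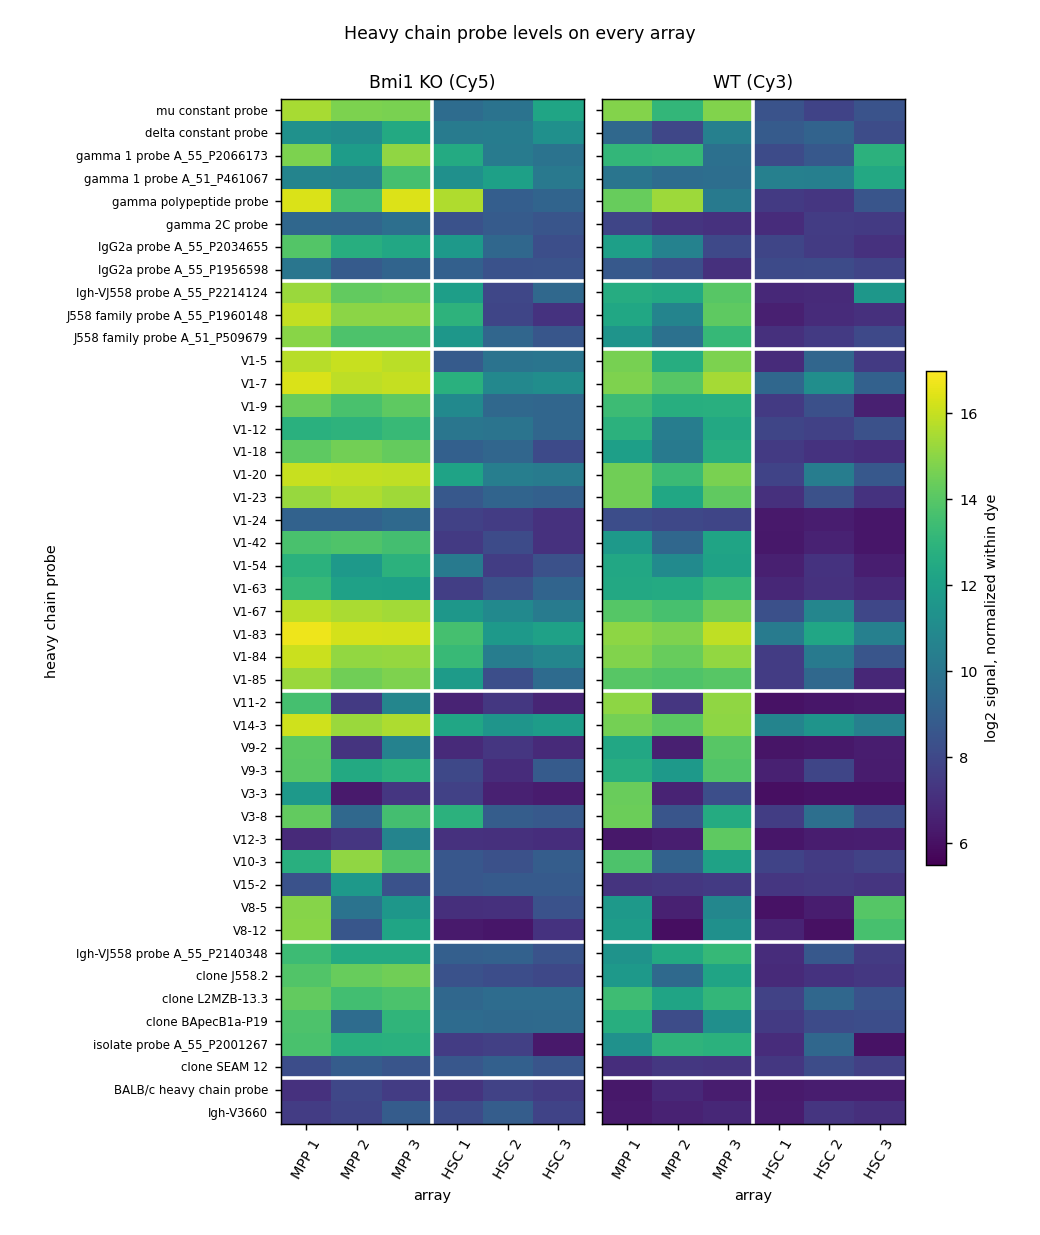
Log2 signal of the 45 heavy chain probes (rows) on each array (columns), normalized between arrays within each dye, with Bmi1 KO in the left panel and WT in the right. Most rows are brighter on the 3 MPP arrays than on the 3 HSC arrays in both panels, and the rows of the other V families are uneven across the MPP arrays.

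The mu constant probe, which reads the first heavy chain class of a B cell, had log2 signals of 15.49, 14.74 and 14.67 on KO MPP replicates 1, 2 and 3, against 9.58, 9.89 and 12.27 in KO HSCs. In WT it had 14.86, 13.11 and 14.82 in MPPs, against 8.45, 7.81 and 8.46 in HSCs. The populations did not overlap in either genotype, and the highest HSC value was that of KO HSC 3. The difference was 4.39 (SE 0.72, limma adjusted p 0.0917) in KO and 6.02 (SE 0.53, limma adjusted p 0.0247) in WT, so that mu rose in WT MPPs by 65-fold and missed the threshold in KO. Over the 16 other settings tried, the WT difference stayed between 5.72 and 6.72 and passed in 8, and the KO difference stayed between 3.89 and 5.23 and passed in 1.

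The delta constant probe, which the files name Ighv14-2 but describe as the delta chain, differed little. It had 11.32, 11.14 and 12.48 in KO MPPs and 10.28, 10.35 and 11.25 in KO HSCs. In WT it had 9.39, 7.96 and 10.52 in MPPs and 8.80, 9.15 and 8.18 in HSCs. The populations overlapped in both genotypes. The difference was 1.02 (SE 0.46) in KO and 0.58 (SE 0.67) in WT, and neither passed limma (adjusted p 0.462 and 0.719). The WT value was -0.04 without MPP 3.

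Of the 6 probes described as gamma or IgG2a, which read genes of the IgG classes, none passed limma. The gamma polypeptide and gamma 1 probes were uneven among replicates. The gamma polypeptide probe lies between the gamma 2C and gamma 1 probes, where RefSeq places Ighg2b. It had 16.34, 13.56 and 16.38 in KO MPPs, against 15.65, 8.95 and 9.21 in KO HSCs. In WT it had 14.32, 15.30 and 10.20 in MPPs, against 7.46, 7.30 and 8.52 in HSCs. Of the HSC samples, KO HSC 1 alone reached the level of the MPP samples of its dye, and in WT the populations did not overlap. The difference was 4.16 (SE 1.86, limma adjusted p 0.453) in KO and 5.51 (SE 1.31, limma adjusted p 0.215) in WT.

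The gamma 1 gene had 2 probes, which disagreed. Probe A_55_P2066173 had 14.72, 11.86 and 15.10 in KO MPPs and 12.55, 10.30 and 9.89 in KO HSCs, and 13.11, 13.22 and 9.75 in WT MPPs and 8.14, 8.67 and 12.87 in WT HSCs. WT HSC 3 was nearly as high as WT MPP 1 and 2, and WT MPP 3 was low, so the populations overlapped. Probe A_51_P461067 (chr12:114567263-114567322) had 10.71, 10.61 and 13.60 in KO MPPs and 11.25, 12.03 and 10.16 in KO HSCs. In WT it was below the HSC samples on every MPP array, with 9.97, 9.55 and 9.67 in MPPs, against 10.52, 10.47 and 12.42 in HSCs. That difference of -1.41 (SE 0.56) did not pass limma (adjusted p 0.345). The KO difference of this probe was 0.49 (SE 0.90), and it was -0.49 without MPP 3 and -0.44 with slide row as a block.

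The gamma 2C probe differed by 0.86 (SE 0.26) in KO, with MPP samples of 9.32, 9.30 and 9.69 above HSC samples of 8.41, 8.80 and 8.53. In WT the difference was 0.11 (SE 0.31), and it was -0.07 without HSC 1 and -0.12 without MPP 1. The adjusted p by limma was 0.301 in KO and 0.900 in WT. The 2 probes described as IgG2a lie at chr12:114525600-114525659 and chr12:114525496-114525555, near the gamma 2C probe at chr12:114523536-114523595. The RefSeq gene order used here has no separate IgG2a gene, so they and the gamma 2C probe may read the same gene. Of the 2 IgG2a probes, A_55_P2034655 had non-overlapping populations in both genotypes, with differences of 3.25 (SE 0.90) in KO and 2.70 (SE 0.96) in WT. The other, A_55_P1956598, overlapped in both, with 0.71 (SE 0.38) in KO and -0.01 (SE 0.45) in WT.

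Beyond gamma 2C, on the side where RefSeq orders Ighe and Igha, lay 3 probes that the files name Igh-VJ558 or J558 family. They are described after their values were seen. Each matched its closest heavy chain probe at only 48.4% to 50% of the overlapping bases, and which gene they read was not resolved here. Probe A_55_P1960148 (chr12:114497090-114497149) had 15.95, 14.99 and 15.02 in KO MPPs, against 12.91, 7.88 and 7.21 in KO HSCs. In WT it had 12.35, 10.70 and 14.13 in MPPs, against 6.49, 6.93 and 7.10 in HSCs. All 3 probes had MPPs above HSCs without overlap in both genotypes, with differences of 4.36 to 5.99 in KO and 3.96 to 5.55 in WT, and none passed limma. On KO HSC 1 the 3 probes read 11.96, 12.91 and 11.59, above the other KO HSC samples, the same sample in which the gamma polypeptide probe was high.

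Among V segments, the V1 family, which holds the largest group of mouse V segments, was the most even over the MPP samples. Its 15 probes all had MPPs above HSCs without overlap in both genotypes. Of them, 11 rose by limma in KO and 6 in WT, with median differences of 4.47 in KO and 5.11 in WT. The range of a V1 probe over the 3 MPP samples had a median of 0.44 in KO and 1.32 in WT. Over the 3 HSC samples the V1 family was less even than the others, with a median range of 1.53 in KO and 1.82 in WT. The other named V families had 0.79 and 0.30 there.

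V1-23 had 15.24, 15.61 and 15.36 in KO MPPs, against 8.69, 9.21 and 9.03 in KO HSCs, a rise of 6.43 (SE 0.27, limma adjusted p 0.00155). In WT it had 14.50, 12.35 and 14.19 in MPPs, against 7.11, 8.35 and 7.19 in HSCs, a rise of 6.13 (SE 0.66, limma adjusted p 0.0376). It was among the 6 probes called in both genotypes, with V1-9, V1-63, V9-3, V14-3 and clone L2MZB-13.3. The replicate values lay close together in KO MPPs, and WT MPP 2 was the lowest of the WT MPP samples.

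V1-63 had the smallest adjusted p of the 45 probes in WT. It read 12.44, 12.53 and 13.17 in WT MPPs, against 6.77, 7.15 and 6.83 in WT HSCs, a rise of 5.80 (SE 0.29, limma adjusted p 0.0101). The KO rise was 4.04 (SE 0.50, limma adjusted p 0.0449). V1-5 rose by 80.5-fold in KO (log2 6.33, SE 0.37, limma adjusted p 0.00364), with 15.78, 16.02 and 15.82 in KO MPPs, against 8.80, 9.87 and 9.96 in KO HSCs. Its WT difference was of like size, 6.12 (SE 0.82), and missed the threshold (limma adjusted p 0.0646). V1-42 and V1-18 likewise rose in KO, by 6.12 (SE 0.32) and 5.53 (SE 0.38), and had 4.73 (SE 0.75) and 4.42 (SE 0.63) in WT.

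The V1-9 probe rose by 4.19 (SE 0.50) in KO and 5.53 (SE 0.50) in WT. V1-84, V1-85 and V1-54 passed in WT and not in KO. They rose in WT by 5.99 (SE 0.69), 6.08 (SE 0.66) and 5.11 (SE 0.44), where their KO differences were 4.0 (SE 0.76), 4.96 (SE 0.85) and 3.76 (SE 0.71). Among the 5 probes with the highest mean signal were V1-83, V1-7 and V1-20, which rose in KO by 3.93 (SE 0.52), 4.47 (SE 0.53) and 5.0 (SE 0.52). Their WT differences were 4.21 (SE 0.62), 4.87 (SE 0.66) and 5.21 (SE 0.72). These bright probes were already well above background in HSCs. V1-83 read 13.60, 11.67 and 12.10 in KO HSCs and 10.27, 12.30 and 10.53 in WT HSCs. V1-24 was the smallest V1 difference, 1.76 (SE 0.27) in KO and 1.74 (SE 0.23) in WT.

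**Figure D2:**
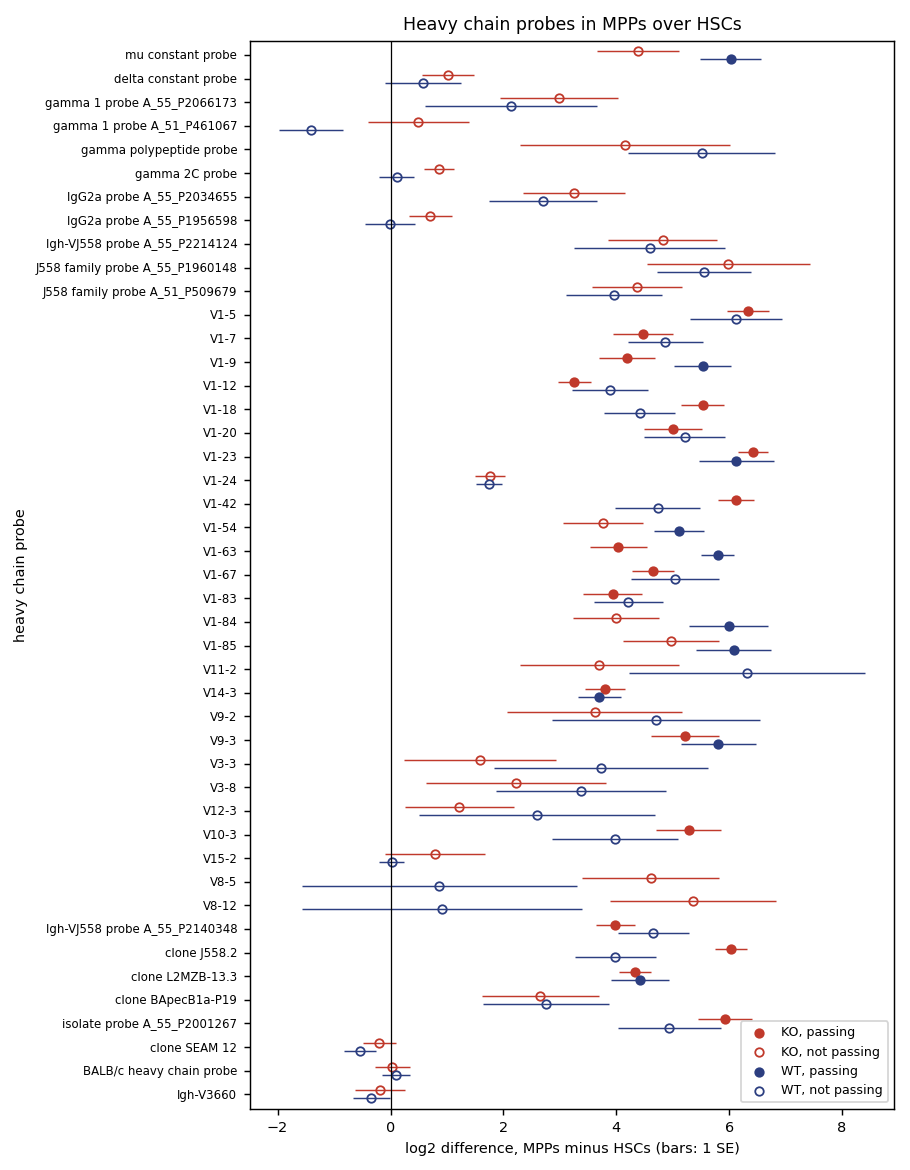
Log2 difference of MPPs over HSCs for each of the 45 heavy chain probes in KO (red) and WT (blue), with bars of 1 SE from limma on 3 arrays per population. Filled points passed at an adjusted p under 0.05 (18 in KO, 10 in WT), and the V1 probes all lie to the right of 0.

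The V1 probes resemble each other and are not independent readings. The median identity of a V1 probe to its closest heavy chain probe was 88.1% over an overlap of at least 30 bases, against 58.1% for the 11 probes of other named V families. A run of 25 identical bases was shared with another heavy chain probe by 6 V1 probes and by no other heavy chain probe. Sharing was not confined to these. Array probes outside the heavy chain rule shared such a run with V8-12, isolate probe A_55_P2001267, V1-7, V1-54, V1-67 and V1-85. They also did so with most of the V1 probes just counted. Which genes those array probes read was not tested. V1-63 matched V1-83 at 31 of 33 overlapping bases and V1-20 matched V1-83 at 53 of 58. The V9-3 probe matched V1-85 at 40 of 48 and V14-3 matched V1-7 at 29 of 32, and these were the 2 probes of other named families that rose in both genotypes.

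Most segments of the other named V families were high on some MPP arrays and near the HSC level on others. Their 11 probes had a median range over the 3 MPP samples of 4.84 in KO and 5.92 in WT. The lowest of the 3 MPP samples was MPP 2 for 8 of 11 probes in KO and 9 of 11 in WT. The median level of the 11 probes on MPP 1, 2 and 3 was 14.08, 9.41 and 11.59 in KO and 12.67, 7.30 and 12.57 in WT. For the V1 family these medians were 15.24, 14.55 and 14.77 in KO and 13.95, 12.65 and 14.03 in WT. The KO and WT samples of a replicate share an array, and MPP 2 had the lowest median green signal of the 6 arrays, 124. Whether either bears on the shared low levels was not tested.

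V11-2 read 13.60, 7.46 and 10.77 in KO MPPs, against 6.67, 7.39 and 6.68 in KO HSCs. In WT it read 15.05, 7.30 and 15.11 in MPPs, against 6.04, 6.20 and 6.26 in HSCs. MPP 2 was close to the HSC samples in both genotypes, and the other MPP samples were far above them. The WT difference, 6.32 (SE 2.09), was the largest of the 45 and did not pass limma (adjusted p 0.296).

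V3-3, and V9-2 and V3-8, which were chosen after their values were seen, were also lowest on MPP 2 in both genotypes. V9-2 read 14.09, 7.25 and 10.60 in KO MPPs and 12.41, 6.49 and 14.01 in WT MPPs. V3-8 read 14.25, 9.41 and 13.56 in KO MPPs and 14.43, 8.52 and 12.57 in WT MPPs. V3-3 read 11.72, 6.33 and 7.33 in KO MPPs and 14.37, 6.63 and 8.25 in WT MPPs. The V3-3 probe met the filter on dim probes only through its WT MPP samples. It was not well above background in WT HSCs on any array. Each WT HSC sample was therefore taken at the lowest signal among probes well above background or at its own, whichever was higher. The mean of the WT MPP samples, set mainly by MPP 1, was then at least 12.4-fold higher. WT MPP 2 was close to the WT HSC samples, which read 5.97, 6.04 and 6.04. The WT difference was 3.73 (SE 1.90, limma adjusted p 0.421).

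Some segments took another order. V12-3, also singled out afterwards, was high on MPP 3 alone, with 6.88, 7.32 and 10.70 in KO MPPs and 6.25, 6.45 and 14.14 in WT MPPs. V15-2, chosen likewise, was high in a single sample, with 8.41, 11.71 and 8.40 in KO MPPs and 7.22, 7.36 and 7.46 in WT MPPs. V10-3 rose in KO by 5.29 (SE 0.58, limma adjusted p 0.0299), and its highest KO sample was MPP 2. It read 12.77, 15.08 and 13.87 in KO MPPs, against 8.60, 8.36 and 8.90 in KO HSCs. In WT it read 13.78, 9.11 and 12.11 in MPPs, against 7.81, 7.51 and 7.76 in HSCs, and MPP 2 was the lowest.

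V9-3 and V14-3 were even across replicates, unlike most of this group. V14-3 read 16.17, 15.28 and 15.59 in KO MPPs, against 12.29, 11.49 and 11.86 in KO HSCs, a rise of 3.8 (SE 0.35, limma adjusted p 0.0163). In WT it read 14.60, 14.10 and 15.03 in MPPs, against 10.67, 11.47 and 10.51 in HSCs, a rise of 3.70 (SE 0.38, limma adjusted p 0.0338). V9-3 rose by 5.21 (SE 0.60) in KO and 5.81 (SE 0.66) in WT.

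**Figure D3:**
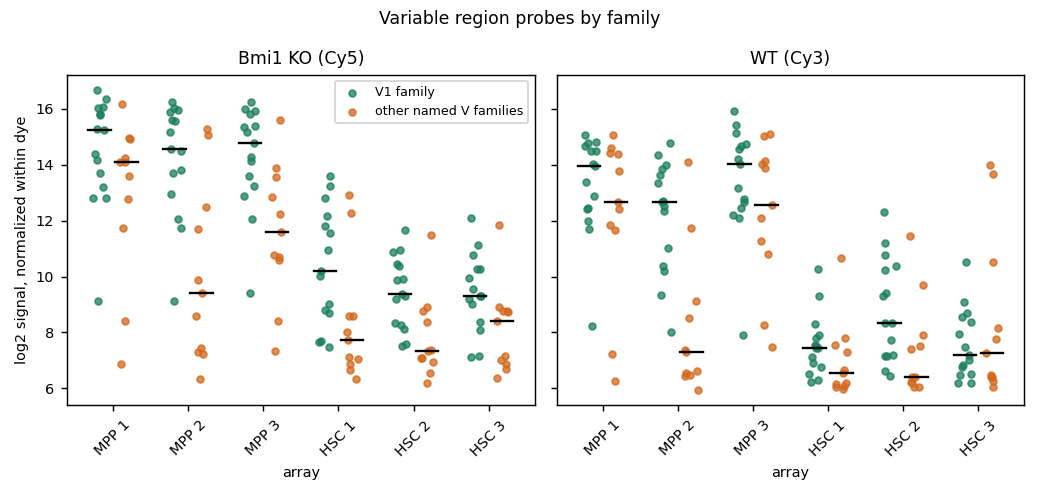
Log2 signal of the 15 V1 probes (green) and the 11 probes of other named V families (orange) on each array, with KO in the left panel and WT in the right, and black bars at the medians. On MPP 2 the median of the other families was 9.41 in KO and 7.30 in WT, near the HSC arrays, and that of the V1 probes was 14.55 and 12.65.

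Of the 6 variable probes for which the files give a clone or a group name but no family, 4 rose in KO and 1 in WT. Clone J558.2 rose by 6.03 (SE 0.28, limma adjusted p 0.00254) in KO and isolate probe A_55_P2001267 by 5.93 (SE 0.47, limma adjusted p 0.00943). Clone L2MZB-13.3 rose by 4.34 (SE 0.28) in KO and 4.42 (SE 0.51) in WT. Clone SEAM 12 was below the HSC samples in WT without overlap, with a difference of -0.54 (SE 0.29, limma adjusted p 0.441), and differed by -0.20 (SE 0.29) in KO. Of the unassigned probes, which are not among the variable counts, Igh-V3660 differed by -0.19 (SE 0.45) in KO and -0.34 (SE 0.32) in WT. The BALB/c heavy chain probe differed by 0.03 (SE 0.31) in KO and 0.10 (SE 0.25) in WT.

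Along chromosome 12 the difference was present on both sides of the V cluster. The 14 V probes with a position farther from the constant genes, 11 of them V1, had a median difference of 4.63 in KO and 4.89 in WT. The 15 nearer ones, 4 of them V1, had 3.70 in KO and 3.97 in WT. Family and position move together here and cannot be told apart.

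Single HSC samples carried high heavy chain signals. The V8-12 probe, and V8-5, which was singled out afterwards, were high on WT HSC 3. V8-12 read 14.95, 8.57 and 12.24 in KO MPPs and 6.35, 6.20 and 7.17 in KO HSCs, and 11.86, 5.94 and 11.28 in WT MPPs and 6.66, 6.04 and 13.66 in WT HSCs. V8-5 read 14.90, 9.89 and 11.59 in KO MPPs and 7.05, 7.10 and 8.40 in KO HSCs, and 11.65, 6.56 and 10.82 in WT MPPs and 6.08, 6.40 and 13.97 in WT HSCs. Both probes were thus high in 1 WT HSC sample above all WT MPP samples, and low in the KO sample of the same array. On WT HSC 3 the 2 gamma 1 probes also had their highest WT HSC values, and Igh-VJ558 probe A_55_P2214124 read 6.83, 6.88 and 11.59 on WT HSC 1, 2 and 3. That sample had S100a8 and S100a9, neutrophil genes, at 13.01 and 12.95, against 5.81 and 5.87 for S100a8 and 6.01 and 7.70 for S100a9 in WT HSC 1 and 2. In the KO sample of that array, where both V8 probes were low, S100a8 and S100a9 read 12.81 and 11.34. Both genes were also highest on replicate 3 among the MPP samples, at 12.43 and 11.42 in WT and 12.16 and 13.10 in KO. Prtn3, of the same list, was instead highest on WT HSC 1, with 11.93, 8.97 and 9.51 on WT HSC 1, 2 and 3. The neutrophil list (7 measured genes) had mean levels of 7.17 to 11.39 over the WT HSC samples. B lineage genes (12 measured) had mean levels of 7.70 to 8.16 there. Of 5 measured erythroid genes, Hba-a1, Hbb-b1 and Klf1 were also highest on WT HSC 3. Hba-a1 read 14.58 there, against 10.33 and 8.98 in WT HSC 1 and 2, and Klf1 read 12.98, against 11.14 and 5.95. The remaining genes of that list, Alas2 and Epor, were not. Alas2 was lowest on WT HSC 3, at 7.13, against 7.95 and 8.56 in WT HSC 1 and 2. Epor differed little, with 7.59 on WT HSC 1, its highest, and 7.53 on WT HSC 3. The erythroid list had mean levels of 7.96 to 10.43 over the WT HSC samples. The part of any of these cells in the V8 signal was not tested.

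Between genotypes, no heavy chain probe passed limma in either population. In MPPs the median log2 KO over WT ratio of the 45 probes was -0.14, with 18 positive (49.6% of all probes) and 27 negative, and 0 passed, as did 0.00% of all probes. With median centring in place of loess that median was 0.34, with 29 of 45 positive. At an unadjusted p under 0.05, 2 probes were higher and 3 lower, where 2.20% and 2.61% of all probes were. All 3 arrays were on the higher side for 6 probes and on the lower side for 14, where the shares over all probes were 14.4% and 14.7%. In HSCs the median was 0.20, with 29 positive (49.7% of all probes) and 16 negative, and 0 passed, as did 0.00% of all probes. There 1 probe was higher (3.92% of all probes) and 0 lower (3.42%) at an unadjusted p under 0.05, 3 were higher on every array (13.2%) and 5 lower (13.6%). The HSC median was -0.09 without HSC 1. With 3 arrays, the smallest two-sided p of an exact sign-flip test is 0.25.

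V11-2 had log2 ratios of -3.16, -0.92 and -5.81 on the MPP arrays, all lower in KO, with a mean of -3.30 (SE 0.82, limma adjusted p 0.992). V1-63 had -0.73, -2.08 and -2.78, a mean of -1.87 (SE 0.47, limma adjusted p 0.992). V3-3 had -4.19, -0.72 and -2.29, a mean of -2.40 (SE 0.63, limma adjusted p 0.992). These were the 3 with lower values at an unadjusted p under 0.05, and V3-3 met the filter on dim probes only through its WT MPP samples. Clone J558.2 had 0.75, 3.66 and 0.67, with a mean of 1.69 (SE 0.60), and gamma 2C had 0.09, 0.75 and 1.2, with a mean of 0.68 (SE 0.28).

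The mu constant probe was lower in KO on all 3 MPP arrays, with -1.27, -0.16 and -1.91, and its HSC ratios were -0.25, 0.73 and 2.57. The means were -1.11 (SE 0.58, limma adjusted p 0.992) in MPPs and 1.02 (SE 0.58, limma adjusted p 0.707) in HSCs. Delta was higher in KO on all 3 MPP arrays, with 0.57, 1.98 and 0.56, and had 0.05, -0.12 and 1.85 in HSCs. The gamma polypeptide and gamma 1 probes had no common direction across arrays. The gamma polypeptide ratio was 0.05, -3.21 and 4.65 on MPP arrays and 6.31, 0.33 and -0.55 on HSC arrays. Gamma 1 probe A_55_P2066173 had -0.03, -2.98 and 4.04 on MPP arrays and 2.58, 0.32 and -4.35 on HSC arrays, and probe A_51_P461067 had -0.55, -0.41 and 2.65 and -0.56, 0.28 and -3.62. The spread between replicate arrays exceeded the mean for each of these gamma ratios in both populations.

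In HSCs the mean ratio farthest from 0 was that of V8-12, -3.13 (SE 1.43, limma adjusted p 0.679), from arrays at -1.26, -0.17 and -7.96, so that its size came mainly from HSC 3. The V8-12 probe met the filter on dim probes only through its KO MPP samples. IgG2a probe A_55_P1956598 had -0.40, -1.02 and -0.61 and isolate probe A_55_P2001267 had -0.53, -2.88 and -0.14, both lower in KO on every HSC array. V1-24, the BALB/c heavy chain probe and V1-42 were higher in KO on every HSC array, with means of 0.28 (SE 0.24), 0.20 (SE 0.21) and 0.35 (SE 0.64).

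The KO effect in MPPs minus that in HSCs had a median of -0.40 over the 45 probes, with 18 positive (50.2% of all probes), and 0 passed, as did 0.00% of all probes. Without HSC 1 that median was 0.14. At an unadjusted p under 0.05, 5 probes were lower and 0 higher, where 2.46% and 1.69% of all probes were. The arrays of the populations did not overlap for 2 probes in the higher direction (3.95% of all probes) and for 6 in the lower (4.47%). Among the lower were V1-63 with -2.17 (SE 0.67), V3-3 with -2.74 (SE 0.90), V11-2 with -3.39 (SE 1.16) and V1-9 with -1.61 (SE 0.61), each at a limma adjusted p of 0.968. The mu probe had -2.13 (SE 0.82) and overlapping arrays.

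**Figure D4:**
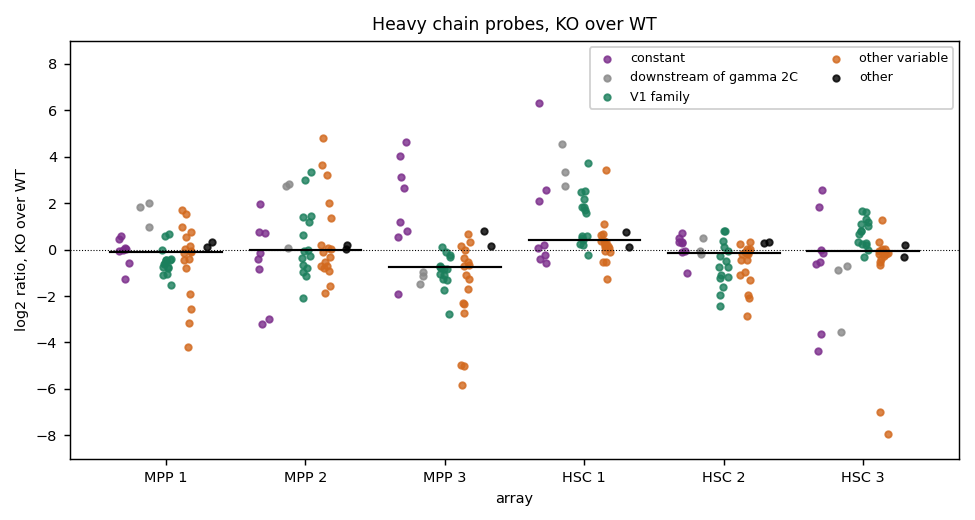
Log2 ratio of KO over WT for each of the 45 heavy chain probes on each array, coloured by gene region, with a black bar at the median of the 45. The medians lie between -0.73 on MPP 3 and 0.43 on HSC 1, and single constant and variable probes reach 6.31 on HSC 1 and -7.96 on HSC 3.

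Genes that assemble the heavy chain locus were next compared, from lists chosen with earlier results of these data known. In MPPs over HSCs, Rag2 and Dntt rose in both genotypes and were 2 of the 12 measured genes of heavy chain assembly and the pre-B cell receptor. Rag2, a subunit of the recombinase that joins V, D and J segments, read 10.98, 12.41 and 12.73 in KO MPPs, against 6.52, 6.64 and 6.19 in KO HSCs, a rise of 5.59 (SE 0.49, limma adjusted p 0.0123). In WT it read 9.17, 8.69 and 9.22 in MPPs, against 5.98, 5.75 and 6.04 in HSCs, a rise of 3.1 (SE 0.26, limma adjusted p 0.0218). Dntt, which adds bases at the joints, rose by 3.59 (SE 0.29) in KO and 2.76 (SE 0.33) in WT. The list's median difference was 2.58 in KO and 0.48 in WT.

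The other genes of this list did not pass in either genotype. Of its 12 genes, 11 had a positive difference in KO (43.3% of all probes) and 9 in WT (44.0% of all probes). Syk was lower in every KO MPP sample than in any KO HSC sample, by -1.14 (SE 0.31, limma adjusted p 0.260). In WT, Vpreb2, Syk and Cd79b had -0.82 (SE 0.37), -0.24 (SE 0.50) and -0.12 (SE 0.47). Cd79a, the signalling chain of the B cell receptor, read 12.45, 15.12 and 15.33 in KO MPPs, 7.29, 6.30 and 10.19 in KO HSCs, 9.90, 10.99 and 8.95 in WT MPPs and 7.95, 6.31 and 8.89 in WT HSCs. Igll1, part of the surrogate light chain that pairs with mu, read 10.91, 13.78 and 14.54 in KO MPPs, 7.59, 8.17 and 9.27 in KO HSCs, 7.04, 7.69 and 8.90 in WT MPPs and 6.80, 7.01 and 6.84 in WT HSCs. KO MPP 1 was the lowest of the KO MPP samples for both. The KO difference was 6.37 (SE 1.18, limma adjusted p 0.126) for Cd79a and 4.74 (SE 0.96, limma adjusted p 0.152) for Igll1, and the WT differences were 2.23 (SE 0.79) and 0.99 (SE 0.49).

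Of the 11 measured genes of heavy chain transcription, Pax5, the B cell commitment factor, rose in KO MPPs by 4.40 (SE 0.52, limma adjusted p 0.0383), and none passed in WT. Pax5 read 12.96, 14.37 and 14.84 in KO MPPs, against 9.76, 9.95 and 9.25 in KO HSCs. Ebf1, an upstream B cell factor, had 5.51 (SE 0.80, limma adjusted p 0.0651) in KO and 0.84 (SE 0.26, limma adjusted p 0.283) in WT. The medians of that list were 1.17 in KO and 0.52 in WT.

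Among 9 genes of class switching and antibody secretion, 1 rose in KO and 0 in WT. Jchain, which links IgM and IgA into polymers, read 12.67, 11.52 and 11.60 in KO MPPs, against 7.13, 6.73 and 8.47 in KO HSCs, a rise of 4.49 (SE 0.55, limma adjusted p 0.0419). In WT it read 12.76, 9.70 and 12.02 in MPPs, against 5.95, 6.41 and 6.23 in HSCs, with 5.29 (SE 0.77, limma adjusted p 0.0765). Its populations did not overlap in either genotype.

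Marker lists of cells that the sort could hold moved as follows. The 12 measured B lineage genes had mean levels of 10.71 to 13.04 in KO MPPs and 8.88 to 9.33 in KO HSCs, and of 8.20 to 8.50 in WT MPPs and 7.70 to 8.16 in WT HSCs. Plasma cell genes, 6 measured, had 10.36 to 10.78 in KO MPPs and 8.63 to 9.05 in KO HSCs, and 9.03 to 9.72 in WT MPPs and 7.47 to 8.0 in WT HSCs. The 8 T cell genes had 9.10 to 9.52 in KO MPPs and 8.90 to 9.69 in KO HSCs, and 7.99 to 8.30 in WT MPPs and 8.17 to 8.60 in WT HSCs. By limma, 1 B lineage and 1 plasma cell gene rose in KO MPPs, and 0 genes of these 3 lists passed in WT. Every measured gene of these 3 lists was well above background on at least 1 array in each group. In KO over WT in MPPs, 12 of 12 B lineage genes had positive ratios (49.6% of all probes), with a median of 2.23. Of them, 9 were higher at an unadjusted limma p under 0.05 (2.20% of all probes), and 0 passed with adjustment. In HSCs, 6 of 12 had positive ratios, with a median of 0.0006, and 0 reached an unadjusted p under 0.05. The heavy chain probes had a median of -0.14 in MPPs, and of 0.34 with median centring. The part of B lineage, plasma or neutrophil RNA in the heavy chain differences was not tested.

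**Figure D5:**
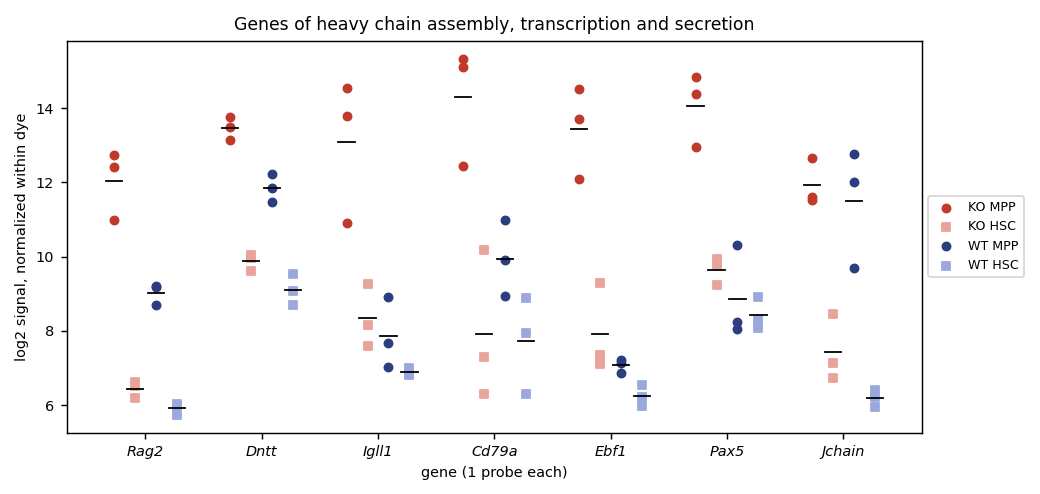
Log2 signal of 7 genes of heavy chain assembly, transcription and secretion in each sample, normalized between arrays within each dye, with black bars at the means of 3 samples. All 7 genes were higher in every KO MPP sample than in any KO HSC sample, and all but Pax5 were higher in every WT MPP sample than in any WT HSC sample. Other genes of the lists are not shown, among them Syk, which was lower in every KO MPP sample than in any KO HSC sample.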

How the data were processed

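RNA of 3 HSC and 3 MPP sample pairs was measured on dual-colour Agilent arrays of 62976 spots, 59305 of them not controls. Per the labels, 10 µg of total RNA per sample was labelled by reverse transcription. Per the file headers, the deposited files hold the mean intensity and local background intensity of each spot, read by version 10.7.3.1 of Agilent's Feature Extraction, whereas version 8.5.1.1 is given in the submitters' processing notes. The log10 ratio of red over green and the processed intensity were deposited by the authors after that software's background and dye correction, and were used here only as alternatives. The deposited 0 or 1 marks (other columns) gave spots well above background, saturated or non-uniform, and the series table held the same log10 ratio.

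Intensities were corrected with normexp (offset 50) in limma 3.58.1 (R 4.3.3). Ratios were loess-normalized within arrays, channel levels quantile-normalized between arrays within a dye, marked spots left out and spots averaged by probe. A probe was kept when every array of 1 or more of the 4 groups had it well above background and no array lacked it, which left 44642. Ratios, WT levels and KO levels each had a limma fit of their own (lmFit, then eBayes) over the 6 arrays, with a mean for each population, adjusted by Benjamini-Hochberg, and the steps were tested on simulated data. An exact permutation of 3 against 3 samples cannot give a two-sided p below 0.1.

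Constant gene probes, probes passing (at most 12 a direction, by size), where fewer than 5 passed the 5 with the smallest p and consistent arrays, and the 5 brightest probes were named by rule, and others as stated. The members, the lists and this rule were chosen with earlier results of these data known. No mm9 genome was used here, and RefSeq (GRCm38.p6) gave only symbols and gene order. Of the other marker lists, NK cell, plasmacytoid dendritic cell, erythroid and neutrophil genes had median MPP over HSC differences of -0.35, 0.66, 1.09 and 2.13 in KO and 0.23, 0.56, -1.26 and 0.74 in WT, with 0 passing.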

Additional observations from a re-analysis of the deposited data

How the results depend on the processing

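With 3 samples a group, spot signal over background and the number of arrays limit every value. In KO MPPs over HSCs, 6 to 18 heavy chain probes passed when 1 array was left out, and in WT 0 to 11. Without the filter on dim probes, 3 passed in WT. Slide row as a block, and row 1 alone (chosen after seeing the data), left 0 in KO and 0 in WT, and moved the KO median difference to 4.73. With the replicate block, 0 passed in KO and 0 in WT, while the medians stayed at 4.0 and 4.21 and the smallest adjusted p was 0.0513 and 0.205. Same-numbered HSC and MPP samples correlated at -0.01 to 0.09 in KO and 0.04 to 0.16 in WT. Differently numbered ones correlated at -0.10 to 0.07 in KO and -0.15 to 0.04 in WT. Whether the replicate numbers pair the arrays cannot be told from these few values. The counts of calls stayed within 1.5 times of 18 and 10 under median scaling, Agilent's processed signal, no background correction, marked spots kept, the stricter filter and 1 probe per gene name. For KO over WT and its difference between populations, 0 probes passed under any alternative. The MPP median ratio was 0.34 with median centring. Leaving out 1 array gave medians of -0.47 to -0.03 in MPPs, -0.09 to 0.33 in HSCs and -0.61 to 0.14 for the difference.

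Directions turned in the following cases, none of which had passed, and the cause was not tested. V14-3 had a KO over WT ratio of 0.034 in MPPs with median centring. Within row 1 alone, the MPP ratio was -0.55 for gamma 1 probe A_51_P461067 and -0.025 for A_55_P2066173. With slide row as a block and within row 1 alone, the KO MPP over HSC difference of A_51_P461067 was -0.44 and the difference of KO effects for delta was -0.025. Leaving out 1 array gave HSC ratios of -0.031 to 0.95 for delta, -0.11 to 3.32 for gamma polypeptide and -2.02 to 1.45 for gamma 1 probe A_55_P2066173. In MPPs it gave -0.48 to 1.12 for A_51_P461067, -1.58 to 2.35 for gamma polypeptide and -1.5 to 2.01 for A_55_P2066173. For the difference of KO effects it gave -0.030 to 1.07 for delta, -3.61 to 0.61 for gamma polypeptide and -1.10 to 2.49 for A_55_P2066173. MPP over HSC differences ranged from -0.49 to 1.01 for A_51_P461067 in KO, and in WT from -0.039 to 1.24 for delta and -0.12 to 0.25 for gamma 2C.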
